A study of Mus musculus with 42 samples.

Results

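The early response to lipopolysaccharide (LPS) of macrophages that lack Nur77 was read from RNA polymerase II (Pol II) chromatin immunoprecipitation with sequencing (ChIP-seq). Pol II libraries of Nur77-KO bone marrow-derived macrophages (BMDMs) were compared, 3 from untreated cells (0 h) and 3 from cells given 100 ng/ml LPS for 1 h, which are 6 of the 42 libraries in the series. Every protein-coding gene of the mouse build was considered, which gave 21884 genes with a value, and 13256 of them were tested. The 6 libraries were chosen by their titles, and no measured value entered that choice. The cells came from male C57Bl6/J mice of 6 to 12 weeks, whose marrow was differentiated for 7 days in medium conditioned by L929 cells and crosslinked with 1% formaldehyde. KO mice lacked Nr4a1, the gene of Nur77, in the whole body: per the study's methods a loxP-flanked Nr4a1 allele was deleted with Cre driven by the CMV promoter, Cre was then bred out, and wild-type (WT) littermates served as controls. The genotype label of the KO libraries nevertheless names Cre, so the presence of Cre in these cells was not settled. WT Pol II libraries and KO H3K27ac libraries of the same times, also 3 per group, were used only for comparison.

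LPS is bound by CD14 and by the TLR4 and MD-2 complex. The signal passes through the adaptors MyD88 and TRIF to NF-kB, to MAP kinases with their AP-1 factors, and to IRF3, which switches on interferon beta. Many of the early target genes encode cytokines and chemokines, and others encode inhibitors that end the signal. Pol II that has been loaded on a gene pauses near the start and is then released into the body, so that ChIP-seq of Pol II follows transcription itself and not the amount of mRNA. The NR4A receptors Nur77, Nurr1 and NOR-1 are products of immediate-early genes that macrophages induce on activation.

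The deposited values are regions in which Pol II tags passed a search, with the tags of each region scaled to 10 M tags of the library (M, mega). They are called normalized tags here. For each gene, normalized tags were summed over the gene body and 500 bp on either side, and a region that lay partly inside counted by its overlap. A value of 0 means that no region was listed there and does not show an absence of reads. Where 1 library of a group is at 0, as for Cxcl10, Mcm2, Rasgrp3 and Slc40a1, the size of the log2 change depends on the pseudocount, the 10 tags added to each value before the log2 was taken. Where 2 or 3 are at 0 no fold between 0 h and 1 h is given. Interactions of such genes are printed near the end as fitted values, which give no size. The tags of a region were spread evenly along it, so neighbours inside the same region, such as Tnf and Ltb, get the same density. In these bulk samples fewer responding cells and less Pol II per cell cannot be told apart. The labels do not say that replicates came from separate mice, and p-values then measure only the spread between these libraries, which may be technical.

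The KO libraries held 25.3 to 35.2 M tags at 0 h and 23.2 to 32.3 M at 1 h. Replicates correlated across 10639 genes, which are not independent, at r = 0.985 to 0.989 at 0 h and 0.992 to 0.993 at 1 h. Listed regions numbered 54088 to 57177 at 0 h and 38229 to 39661 at 1 h, and held 70.4% to 71.9% of the tags against 78.9% to 81.1%. As a check of the cells, the 10 macrophage markers summed to 26910 to 28993 normalized tags at 0 h and 26641 to 27505 at 1 h, although 5 of them were called lower and 2 higher (median log2 change -1.27). All 5 mast cell or basophil markers were at 0 in the 6 libraries, as were 6 of 7 neutrophil, 4 of 6 B cell, 4 of 6 T or NK cell, 5 of 6 erythroid and 5 of 6 fibroblast markers. The summed levels at 0 h and 1 h were 39.3 to 45.3 and 8.62 to 17.0 for neutrophils, 123 to 161 and 59.5 to 77.8 for B cells, 17.8 to 27.4 and 0 for erythroid cells, 144 to 163 and 163 to 188 for T or NK cells, and 0 and 0 to 6.21 for fibroblasts. Dendritic cell markers summed to 458 to 494 at 0 h and 4308 to 4520 at 1 h, almost wholly from Ccr9 and Xcr1, whose windows overlap those of other genes. The part of these markers in the results was not tested.

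After 1 h of LPS the Pol II of KO cells was redistributed over the genes. Of 13256 genes tested, 1482 were called higher (11.2%) and 4658 lower (35.1%), a call being an adjusted p under 0.05 with a log2 change over 1 in size on log2(normalized tags + 10). The median log2 change over all genes tested was -0.62. In 1479 of the higher and 4645 of the lower genes the 3 libraries at 1 h did not overlap the 3 at 0 h. Genes called higher held 11.5% to 12.1% of all tags on genes at 0 h and 46.4% to 47.2% at 1 h. Genes called lower held 34.3% to 34.9% at 0 h and 6.96% to 7.26% at 1 h. These shares and the counts without overlap describe the genes that the test itself picked, so they add no support to the calls. How many of all genes tested were without overlap was not counted.

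The balance of rises and falls depended on the scale. The values are shares of a library, so a gain at some genes can lower the others. The sum over all genes also rose, from between 5606630 and 5840280 normalized tags at 0 h to between 6432800 and 6577290 at 1 h. The part of this in the falls was not tested. When each library was centred on its median the median change was -0.05 and the calls were 2395 higher (18.1% of genes tested) and 2507 lower (18.9%), so that 48.9% of calls were higher in place of 24.1%. All 1482 genes called higher stayed so, whereas 2507 of the 4658 lower genes kept their call. Quantile normalization gave 2138 higher (16.1%) and 2388 lower (18.0%), so that 47.2% of calls were higher.

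Falls were more numerous, also among log2 changes over 4 in size, whereas rises were more numerous over 5. For genes listed at 0 at either time, the pseudocount sets how far the log2 change can reach. A log2 change over 2 was seen in 655 of the higher genes, over 4 in 147 and over 5 in 70, against 1554, 161 and 46 of the lower genes. The median density of the higher genes went from 4.68 to 24.8 normalized tags per kb, and regions covered a median of 21.1% of the gene window at 0 h and 80.8% at 1 h. In the lower genes the median density went from 6.56 to 1.28 per kb and the median cover from 25.4% to 5.78%. No region was listed at 0 h for 119 of the higher genes, and none at 1 h for 691 of the lower genes. The higher genes were longer, with a median of 36.4 kb against 24.2 kb for the lower and 23.3 kb for all tested genes. The share called higher was 7.20% among tested genes of up to 5 kb and 19.5% among those over 200 kb, and the share called lower was 30.6% and 40.1%. Of the higher genes, 46.2% had another gene called higher within 50 kb, against 17.3% of all genes tested. Neighbours in the same region get the same density and so tend to be called together. Over 50% of the tags at 1 h came from regions that reach another gene in 548 of the higher genes. How much of the 46.2% this makes up was not tested.

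**Figure D1:**
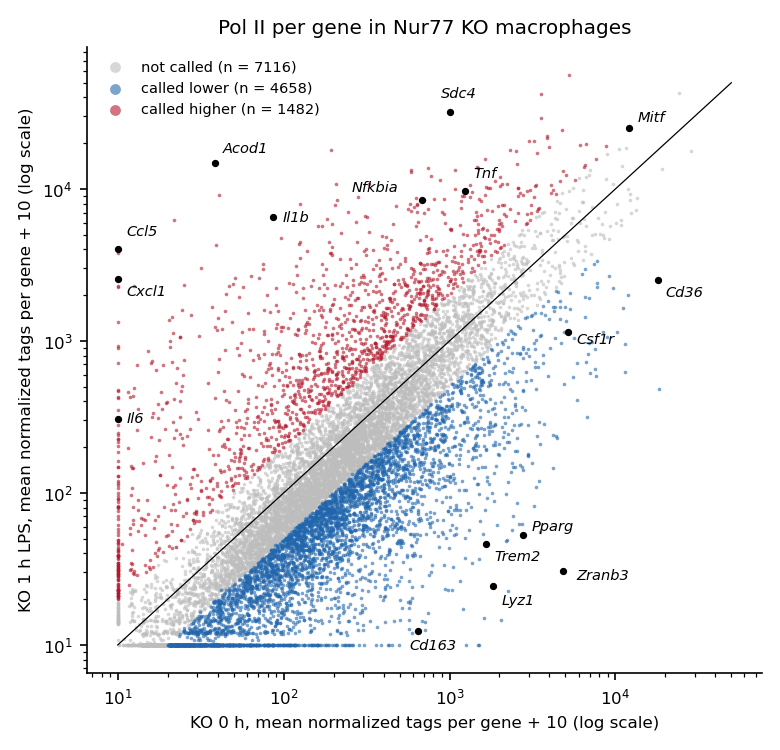
Mean Pol II per gene in KO cells at 0 h (horizontal axis) and after 1 h of LPS (vertical axis), in normalized tags + 10 on log scales, for the 13256 genes tested; the line marks equal values and colours mark the calls. Points along the left edge are genes listed at 0 at 0 h, such as Ccl5, and points along the lower edge are genes listed at 0 at 1 h.

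Genes of at least 1 kb were ordered by Pol II per kb at 1 h, and the first 2 in that order lie side by side in the Tnf locus. Ltb and Tnf, which share a region, had 2688 normalized tags per kb each, Nfkbia 1987, Lta 1781, Sdc4 1551, Ccl3 and Ccl4, which also share a region, 1520 each, and Acod1 1397. At 0 h the order was led by Rgs1, a regulator of G protein signalling, with 1221 per kb, followed by the ferritin gene Fth1 with 1188 and Actb with 1008. Rgs1 had 1365 per kb at 1 h and was ninth. The 20 genes with the most tags held 4.97% to 5.04% of tags on genes at 0 h and 7.69% to 7.91% at 1 h.

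Of 15 genes of NF-kB subunits, inhibitors and associated regulators, 13 were called higher and 0 lower, against 11.2% and 35.1% of all genes tested, with a median log2 change of 2.82 against -0.62. Centred on the library median the count was again 13 and 0 (against 18.1% and 18.9% of all genes), and after quantile normalization it was 12 and 0 (against 16.1% and 18.0%). Nfkbia encodes IkBa, the inhibitor that holds NF-kB in the cytoplasm. It had 708, 681 and 632 normalized tags at 0 h and 8853, 8265 and 8149 at 1 h, and all 3 treated libraries lay far above the untreated ones. Its log2 change was 3.63 (SE 0.07, adjusted p 3.2e-18). Tnfaip3, the gene of the ubiquitin-editing enzyme A20, went from 2541, 2466 and 2546 to 19240, 17064 and 17143 (2.82, SE 0.06, adjusted p 5.1e-17). Nfkbiz, an atypical IkB needed for secondary response genes, went from a mean of 580 ± 29.0 to 12957 ± 586 (SD, n = 3; log2 change 4.46).

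The subunit genes differed among themselves. Nfkb1, which encodes p105 and p50, rose by 3.25 on the log2 scale, Nfkb2 by 2.86, Relb by 2.35 and Rel by 2.34. Rela, which encodes p65, had 776, 598 and 743 tags at 0 h and 854, 828 and 800 at 1 h, and its change of 0.23 was not called. Of the inhibitors, Nfkbid was likewise not called, with means of 1976 ± 136 and 1522 ± 33.5 (log2 change -0.37). The change with the largest fold in this list was at Traf1, an adaptor of TNF receptors, at 63.1, 40.8 and 57.4 tags before and 2732, 2628 and 2652 after LPS (5.41, SE 0.11). Tnip1, a partner of A20, rose by 3.31.

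Promoters of 5 genes that rose and of Trem2, which fell, are shown because the motif shares given further on rest on windows of this kind. They are chosen examples and do not stand for those shares, since NF-kB letters were in only 6.01% of the promoters of higher genes. Each runs 5′ to 3′ on the strand of the gene, from 250 bases before to 50 bases after the RefSeq start (GRCm38.p6). Capitals mark matches to NF-kB (GGGANNTTCC or GGGGNNTTCC), AP-1 (TGAGTCA or TGACTCA), ISRE (GAAANNGAAA) or TATAAA on either strand. The window of Nfkbia is chr12:55492598-55492897 on the minus strand, with an NF-kB match at positions -29 to -20 from the start and TATAAA at 20 to 25. That of Cxcl10 is chr5:92348840-92349139 on the minus strand, with NF-kB matches at -159 to -150 and -104 to -95, AP-1 at -74 to -68 and ISRE at -213 to -204. Cxcl1 is at chr5:90890995-90891294 on the plus strand, where letters at -71 to -62 match NF-kB on the plus strand and those at -70 to -61, which overlap them, on the minus strand. Ifnb1 is at chr4:88522745-88523044 on the minus strand, with NF-kB at -116 to -107 and TATAAA at -210 to -205 and -82 to -77. Acod1 is at chr14:103046762-103047061 on the plus strand with TATAAA at -28 to -23, and Trem2 at chr17:48346151-48346450 on the plus strand held none of these letters. A match is a description of the letters and not a site of binding.
Nfkbia: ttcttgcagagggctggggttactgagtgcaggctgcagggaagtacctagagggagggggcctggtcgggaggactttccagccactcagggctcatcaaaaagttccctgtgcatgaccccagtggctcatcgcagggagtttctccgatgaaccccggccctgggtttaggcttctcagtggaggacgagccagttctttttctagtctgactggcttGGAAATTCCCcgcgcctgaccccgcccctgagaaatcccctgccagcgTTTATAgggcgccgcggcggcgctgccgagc
Cxcl10: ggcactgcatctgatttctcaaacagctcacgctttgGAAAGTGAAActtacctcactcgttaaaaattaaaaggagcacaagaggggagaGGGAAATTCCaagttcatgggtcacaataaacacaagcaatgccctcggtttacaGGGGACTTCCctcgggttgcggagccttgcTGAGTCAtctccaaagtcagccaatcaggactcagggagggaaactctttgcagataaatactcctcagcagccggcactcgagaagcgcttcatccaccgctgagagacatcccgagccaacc
Cxcl1: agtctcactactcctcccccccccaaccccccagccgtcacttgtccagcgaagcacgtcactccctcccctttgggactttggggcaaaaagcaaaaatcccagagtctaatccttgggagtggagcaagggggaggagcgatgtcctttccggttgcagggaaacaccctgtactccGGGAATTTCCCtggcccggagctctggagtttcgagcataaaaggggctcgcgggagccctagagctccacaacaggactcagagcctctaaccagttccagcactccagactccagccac
Ifnb1: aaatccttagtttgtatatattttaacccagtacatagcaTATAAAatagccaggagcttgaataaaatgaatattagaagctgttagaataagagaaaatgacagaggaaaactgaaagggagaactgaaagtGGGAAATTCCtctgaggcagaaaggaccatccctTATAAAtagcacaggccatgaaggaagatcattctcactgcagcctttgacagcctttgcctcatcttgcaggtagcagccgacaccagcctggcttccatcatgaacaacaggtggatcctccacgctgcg
Acod1: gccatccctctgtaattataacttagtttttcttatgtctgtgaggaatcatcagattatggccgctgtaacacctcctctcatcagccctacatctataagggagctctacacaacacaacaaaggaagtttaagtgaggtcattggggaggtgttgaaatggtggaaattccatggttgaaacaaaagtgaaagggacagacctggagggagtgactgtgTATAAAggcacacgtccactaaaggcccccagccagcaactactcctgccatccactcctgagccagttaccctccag
Trem2: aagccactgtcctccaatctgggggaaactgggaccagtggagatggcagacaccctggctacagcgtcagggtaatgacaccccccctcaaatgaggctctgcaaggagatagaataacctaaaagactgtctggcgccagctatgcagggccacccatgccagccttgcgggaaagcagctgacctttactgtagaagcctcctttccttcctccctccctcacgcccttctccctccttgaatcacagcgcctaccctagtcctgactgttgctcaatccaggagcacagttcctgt

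Of 17 tested cytokine genes, 14 were called higher and 0 lower, against 11.2% and 35.1% of all genes tested, and the median log2 change was 2.98. The counts were 15 and 0 after centring, where 18.1% of all genes were higher, and 14 and 0 after quantile normalization, where 16.1% were. Tnf (chr17:35199381-35202007, minus strand) went from 1267, 1326 and 1083 normalized tags to 11310, 8900 and 9043 (2.98, SE 0.09, adjusted p 4.5e-15). Il1a and Il1b, the genes of the interleukin 1 ligands, had larger log2 changes from lower levels at 0 h. Il1b had 54.1, 93.1 and 80.1 tags at 0 h and 7259, 6022 and 6209 at 1 h (6.27, SE 0.13). Il1a had 27.2, 30.2 and 35.2 before and 10238, 8482 and 8708 after LPS (7.81, SE 0.14), although its tags at 1 h came from regions that reach another gene.

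Several secreted factors had no listed region at 0 h, so their rise has no fold. Il12b, which encodes the p40 subunit shared by IL-12 and IL-23, was listed at 0 in all 3 untreated libraries and at 2599, 2106 and 2204 at 1 h. Il6 was listed at 0 and then at 320, 279 and 297. Csf2, the gene of GM-CSF, was listed at 0 and then at 258, 224 and 229, and Lif at 0 and then at 242, 215 and 191. All 4 were called. Il12a, the gene of the other IL-12 subunit p35, was listed in 2 of 3 treated libraries at 8.50 and 6.68 and was not called. Csf1, the growth factor of macrophages themselves, rose from 650 ± 43.5 to 4571 ± 278 (SD, n = 3; 2.80), and the anti-inflammatory Il10 from 45.7 ± 11.3 to 216 ± 13.9 (2.04). Osm (131 and 127 on average) and Tgfb1 (1627 and 940, log2 change -0.79) were not called.

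In KO libraries taken after 18 h of LPS the means were 3190 ± 397 for Tnf, 416 ± 39.9 for Il1b, 972 ± 22.5 for Il1a and 425 ± 27.8 for Il6 (SD, n = 3). Il12b, Csf2 and Lif were listed at 0 in all 3 libraries at 18 h. These levels are given for orientation and were not compared.

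Of 14 tested chemokine genes, 13 were called higher and 0 lower under each of the 3 scalings, with a median log2 change of 3.13. Of all genes tested, 11.2% were higher as reported, 18.1% centred and 16.1% after quantile normalization, and 35.1%, 18.9% and 18.0% lower. Ccl5 (chr11:83525778-83530518, minus strand), which attracts T cells and monocytes, was listed at 0 in every untreated library and at 4281, 3881 and 3908 at 1 h. The region that holds it at 1 h also reaches Heatr9. The neutrophil chemokine Cxcl1 was listed at 0 and then at 2746, 2449 and 2389. Its neighbour Cxcl2 had 173, 179 and 134 and then 2930, 2614 and 2550 tags (3.98, SE 0.11), and at 1 h both lay in the same region. Cxcl10, which attracts T cells through CXCR3, had 15.3, 18.7 and 0 before and 1692, 1331 and 1246 after LPS (6.20, SE 0.27, and 4.59 with a pseudocount of 50). The macrophage chemokine Ccl22 was listed at 0 and then at 508, 440 and 438. Ccl9 had 4157, 2730 and 2487 at 0 h and 4426, 3900 and 3874 at 1 h, so its groups overlapped, and its change of 0.41 was not called. Cxcl9, an interferon gamma target, was listed at 0 in all 6 libraries and was not tested.

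**Figure D2:**
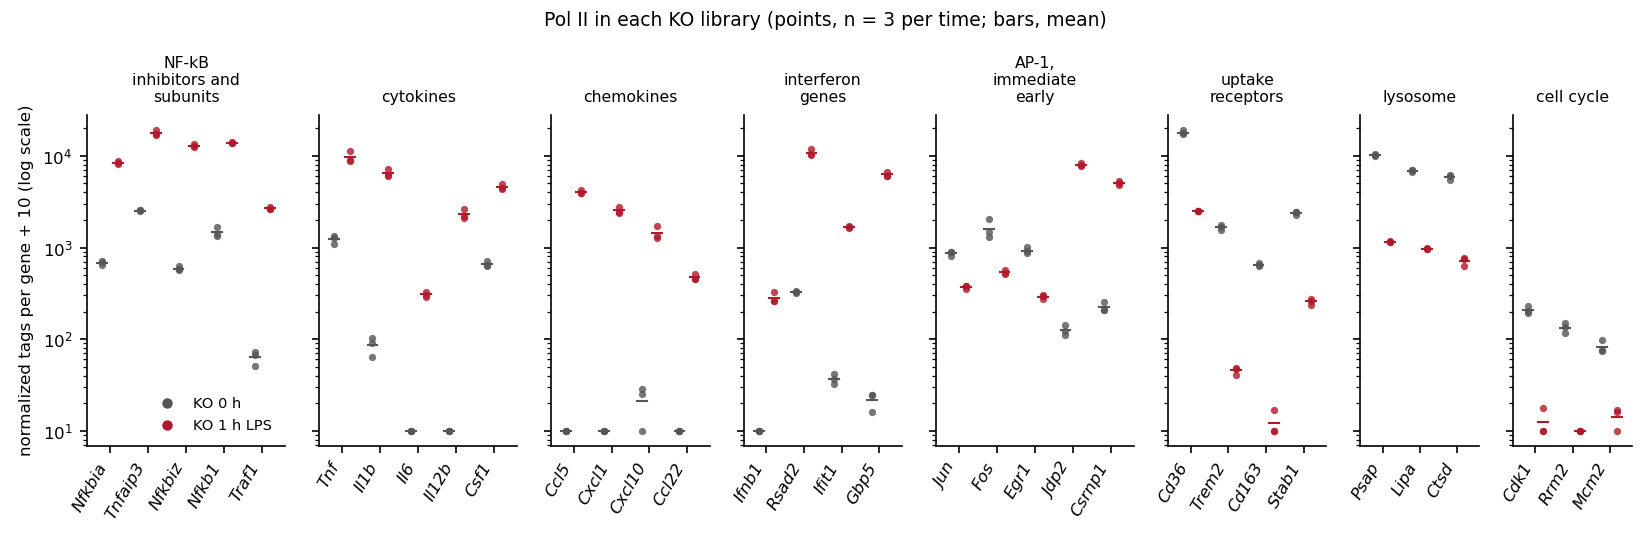
Pol II at 33 named genes in each KO library (points, 3 per time; bars, mean), as normalized tags + 10 on a log scale, grouped by role. The points at 0 h and 1 h stand apart for each gene shown, and values at the lower edge are listed at 0.

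Enzymes of inflammation were called higher in 5 of 7 and lower in 1 (against 11.2% and 35.1% of all genes tested), or in 5 and 0 after centring (against 18.1% and 18.9%) or quantile normalization (against 16.1% and 18.0%). Acod1 (chr14:103046977-103056573, plus strand), which makes itaconate from a citric acid cycle intermediate, had 35.1, 14.5 and 35.7 tags at 0 h and 15837, 13888 and 14692 at 1 h (8.64, SE 0.28, adjusted p 5.4e-15). Ptgs2, the inducible cyclooxygenase, rose from 11.1 ± 5.02 to 721 ± 69.5 (5.14), and Ptges, a prostaglandin E synthase, by 3.53. Nos2, the inducible nitric oxide synthase, rose by 1.52, from 9.97, 35.3 and 28.6 to 93.6, 92.2 and 67.6. It was the smallest of the 5 rises in this list. Ptgs1, the constitutive cyclooxygenase, was listed at 0 in all 3 treated libraries after 17.3 ± 0.929 at 0 h, and it is the lower call that those scalings lost.

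Genes that feed back on the signal were called higher in 11 of 20 (55.0%) and lower in 1 (5.00%), against 11.2% and 35.1% of all genes tested, with a median log2 change of 1.52. Centred on the library median, 15 were higher and 1 lower, against 18.1% and 18.9% of all genes. After quantile normalization 11 were higher and 2 lower, against 16.1% and 18.0%. Socs3, which restrains cytokine receptors, went from 17.6, 11.9 and 16.0 to 2461, 2207 and 2259 (6.53, SE 0.13). Cish, of the same family, rose by 4.30 and Socs1 was not called (0.99, means of 120 and 249). The phosphatase genes Dusp1, Dusp2, Dusp5 and Dusp16, which switch off MAP kinases, rose by 2.27, 2.62, 1.07 and 3.68, and Dusp4 was not called (0.17). Among genes of mRNA decay, Zc3h12c rose by 3.66. Zfp36, the gene of tristetraprolin, had means of 778 and 1349 and was not called (0.79). Its relative Zfp36l2 fell from 2062, 2167 and 2125 to 319, 307 and 297 (-2.74, SE 0.08).

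The gene of interferon beta was called higher at 1 h, as were most genes of a chosen list of interferon-stimulated genes. Ifnb1 (chr4:88522025-88522774, minus strand) was listed at 0 in the 3 untreated libraries and at 249, 253 and 313 at 1 h. Irf1, a factor induced through NF-kB, rose from 619 ± 16.3 to 5729 ± 488 (SD, n = 3; 3.19). Of 14 interferon-stimulated genes, 12 were called higher and 0 lower, against 11.2% and 35.1% of all genes tested, with a median of 2.40. All 14 were higher after centring and after quantile normalization, against 18.1% and 16.1% of all genes. Rsad2, which encodes viperin, had 325, 306 and 321 before and 11773, 10107 and 10423 after LPS (5.04). Gbp5, a guanylate-binding protein of host defence, had 6.02, 14.5 and 14.6 before and 6710, 6099 and 6043 after (8.21, SE 0.15). Ifit1 rose by 5.51, Gbp2 by 5.17 and Oasl1 by 5.13. Ifi44 was listed at 0 and then at 27.3, 5.88 and 6.03, and at 18 h stood at 1619 ± 69.1. Usp18 (0.69) and Isg20 (0.88) were not called.

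Of 12 genes of interferon beta, IRFs and STATs, only Ifnb1 and Irf1 were called higher on the reported scale (16.7%, near the 11.2% of all genes tested), whereas 6 were after centring and 5 after quantile normalization, against 18.1% and 16.1% of all genes. The lower calls were 2 (against 35.1%), 2 (against 18.9%) and 3 (against 18.0%). Irf8, a lineage factor of macrophages, fell from 2316, 2244 and 2164 to 534, 509 and 485 (-2.12, SE 0.06). Irf2 fell by 1.86. Irf7 (0.53) and Irf9 (0.39) were not called.

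Of 20 receptor, adaptor and kinase genes of the pathway, 3 were called higher and 1 lower (15.0% and 5.00%, against 11.2% and 35.1% of all genes tested). Tlr4, the signalling receptor of LPS, fell from 1777, 1734 and 1790 to 567, 527 and 531 (-1.69, SE 0.07, adjusted p 1.3e-13). The change sat past the start, with -0.12 in the promoter window of 500 bp to each side and -1.80 in the body. Its partners Ly96, the gene of MD-2, and Cd14 were called higher at 1.53 and 1.18. Ly96 however had -0.17 in the promoter window. Tlr2, the receptor of bacterial lipopeptides, rose from 135, 136 and 114 to 1385, 1278 and 1334 (3.28, SE 0.10). The other 16 of the 20 genes were not called, among them Myd88 (0.40), Ticam1 (0.42) and Traf6 (0.70). Centred, 7 of the 20 were higher and 1 lower, against 18.1% and 18.9% of all genes. Quantile normalization gave 4 higher and 1 lower, against 16.1% and 18.0% of all genes.

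The 15 AP-1 genes of the list are a chosen set and not every gene of the family, and 4 of them were called higher and 4 lower (26.7% each, against 11.2% and 35.1% of all genes tested). The median change was -0.16, which became 0.41 after centring and -0.08 after quantile normalization. Centred, 5 were higher and 1 lower, against 18.1% and 18.9% of all genes. Quantile normalization gave 3 higher and 4 lower, against 16.1% and 18.0% of all genes. The share called higher on that scale was near that of all genes. Fos had 1458, 2028 and 1277 tags at 0 h and 561, 514 and 499 at 1 h (-1.55, SE 0.11), and Jun 879, 891 and 798 and then 346, 369 and 367 (-1.22). After centring these changes were -0.98 and -0.65 and were not called. Fosl1 fell by 2.79, which is the lower call that remained. Jdp2, whose product dimerizes with Jun and represses AP-1 targets, was at 100, 133 and 112 and then at 8353, 7715 and 7873 (6.01, SE 0.08). Junb (1.26), Batf (1.27) and Atf5 (1.21) were called higher, whereas Atf3 was not called (0.54, means of 5042 and 7347).

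Of 15 other immediate-early genes, 4 were higher and 3 lower, against 11.2% and 35.1% of all genes tested. Egr1 fell from 998, 899 and 853 to 297, 266 and 283 (-1.67), and Egr3 and Klf4 fell by 1.77 and 1.84. Klf4 had 0.52 in the promoter window. Csrnp1 rose from 242, 197 and 198 to 5372, 4859 and 5019 (4.52), Gadd45b by 2.84, Nfil3 by 1.29 and Klf6 by 1.10. Ier2 (-0.43) and Btg2 (-0.59) were not called. The median of this list was -0.16 as reported, 0.41 centred and 0.10 after quantile normalization.

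The NR4A genes were examined because the mice carry a deletion in Nr4a1. Regions were still listed over Nr4a1 (chr15:101254269-101274795, plus strand) in KO cells, with 87.8, 76.1 and 70.2 normalized tags at 0 h and 33.5, 39.0 and 36.6 at 1 h. Its change of -0.92 on the log2 scale (adjusted p 6.9e-05) did not pass the size needed for a call. Which part of Nr4a1 was deleted was not determined here, so these regions do not check the genotype label. Nr4a2, the gene of Nurr1, had 304, 262 and 260 and then 321, 360 and 336 (0.29, not called). Nr4a3, the gene of NOR-1, rose from 52.4, 37.6 and 37.4 to 128, 146 and 131 (1.48, SE 0.25), with 3.48 in the body and -0.28 in the promoter window, and it was not called with a pseudocount of 1.

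Of 17 uptake receptor and complement genes, 8 were lower (47.1%) and 3 higher (17.6%), against 35.1% and 11.2% of all genes tested. The counts were the same after centring, where 18.9% of all genes were lower and 18.1% higher. After quantile normalization 9 were lower and 3 higher, against 18.0% and 16.1% of all genes. Trem2, a lipid receptor of macrophages, fell from 1677, 1751 and 1550 to 39.0, 30.6 and 37.7 (-5.19, SE 0.10, adjusted p 8.9e-18); its tags at 0 h came from regions that reach another gene. Cd163, the haemoglobin scavenger receptor, went from 665, 631 and 615 to 0, 6.81 and 0, and was called lower. Cd36, which takes up fatty acids and oxidized lipoproteins, went from 17584, 17221 and 19035 to 2513, 2474 and 2496 (-2.84). Gas6, the bridge between apoptotic cells and their receptors, fell by 4.87, its receptor gene Mertk by 1.60, Stab1 by 3.21, and the Fc receptor genes Fcgr1 and Fcgr3 by 3.73 and 2.79. The 3 members called higher were Msr1, a scavenger receptor, Cx3cr1 and Marco. Msr1 rose from 2568 ± 113 to 10131 ± 297 (1.98) and the fractalkine receptor gene Cx3cr1 from 564 ± 45.1 to 7952 ± 270 (3.80), although most of the tags of Cx3cr1 came from regions that reach another gene. Marco was listed at 0 and then at 13.1, 11.9 and 14.2. C1qa, C1qb and C1qc, which share a region, were not called (-0.35 each).

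Lysosomal genes fell in 12 of 20 and rose in 1, against 35.1% and 11.2% of all genes tested, with a median of -1.39. After centring 8 were lower and 2 higher, where 18.9% and 18.1% of all genes were, and after quantile normalization 12 and 0, against 18.0% and 16.1%. Psap, the precursor of the saposins, went from 10465, 10347 and 9884 to 1159, 1126 and 1137 (-3.15, SE 0.05). Lipa, the acid lipase, fell by 2.83, the proteases Ctsd and Ctsa by 3.05 and 2.78, and the cholesterol transporter Npc1 by 2.80. Npc2, the soluble partner of NPC1, was the exception at 1.02, from 1192 ± 72.6 to 2430 ± 69.9. Ctsb (-0.40), Ctsl (0.19) and Lamp1 (0.25) were not called.

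Replication and mitosis genes fell in 12 of 20 (against 35.1% of all genes tested), in 9 after centring (against 18.9%) and in 7 after quantile normalization (against 18.0%). Cdk1 had 185, 192 and 220 at 0 h and 0, 7.89 and 0 at 1 h, and was called lower. Rrm2, a subunit of ribonucleotide reductase, had 125, 139 and 106 and was then listed at 0 in all 3 libraries. Mcm2, of the replicative helicase, fell by 2.56. The only member called higher was Mki67, from 484, 388 and 351 to 1529, 1463 and 1481 (1.86). All of its tags at 1 h came from regions that reach another gene, and its promoter window had 0.26.

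Of 14 lineage factors, 3 were called higher (21.4%) and 2 lower (14.3%), against 11.2% and 35.1% of all genes tested, so the lower share is under that of all genes. After centring the counts were 6 and 1, against 18.1% and 18.9% of all genes. After quantile normalization they were 2 and 2 (14.3% each), near the 16.1% and 18.0% of all genes. Tfec and Mitf, related factors of the macrophage and osteoclast lineage, were called higher. Tfec had 319, 282 and 320 and then 6625, 6438 and 6381 tags (4.36, SE 0.08), and Mitf rose by 1.05 from 12101 ± 912. Hif1a rose by 1.31. Cebpa fell from 415, 362 and 366 to 120, 136 and 134 (-1.48). Spi1, the gene of PU.1, had means of 4604 ± 889 and 8034 ± 182 and was not called (0.82). Of the 10 macrophage markers, 5 were lower and 2 higher, against 35.1% and 11.2% of all genes tested. Csf1r fell by 2.17 and Itgam by 4.13 while Adgre1, the gene of F4/80, rose by 1.44.

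Among sterol genes 3 of 14 were higher (21.4%) and 4 lower (28.6%), against 11.2% and 35.1% of all genes tested. The counts were 7 and 3 after centring, where 18.1% and 18.9% of all genes were called. After quantile normalization they were 3 and 4, where 16.1% and 18.0% were. Srebf2, the regulator of sterol synthesis, rose by 1.96 (body window 2.20, promoter window -0.11), Hmgcs1 by 1.31 and Mylip by 1.42. Sqle, Dhcr7 and the cholesterol exporter Abcg1 fell by 1.86, 2.17 and 1.14, Lss was called lower and listed at 0 at 1 h, and Abca1 was not called (0.68). Of 12 actin and adhesion genes, 2 were called higher (16.7%), among them the integrin gene Itga5 by 2.03, and 3 lower (25.0%, under the 35.1% of all genes). After centring 4 were higher and 1 lower (33.3% and 8.33%, against 18.1% and 18.9% of all genes). After quantile normalization 2 were higher and 4 lower (16.7% and 33.3%, against 16.1% and 18.0%). Ribosomal protein genes had a median of -0.23 with 2 of 20 lower and 0 higher, and respiratory chain genes -0.22 with 2 of 17 lower and 0 higher, against 35.1% and 11.2% of all genes tested. After centring 0 and 1 were lower and 1 and 2 higher, where 18.9% and 18.1% of all genes were. Both medians turned to 0.35 after centring and were 0.02 and 0.29 after quantile normalization. Of 8 reference genes 3 fell (37.5%, near the 35.1% of all genes, and 1 lower with 1 higher after centring), among them Hprt by 2.87 and Polr2a by 1.25, and Ppia (0.11) and B2m (0.78) were not called. Polr2a had 0.33 in the promoter window.

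**Figure D3:**
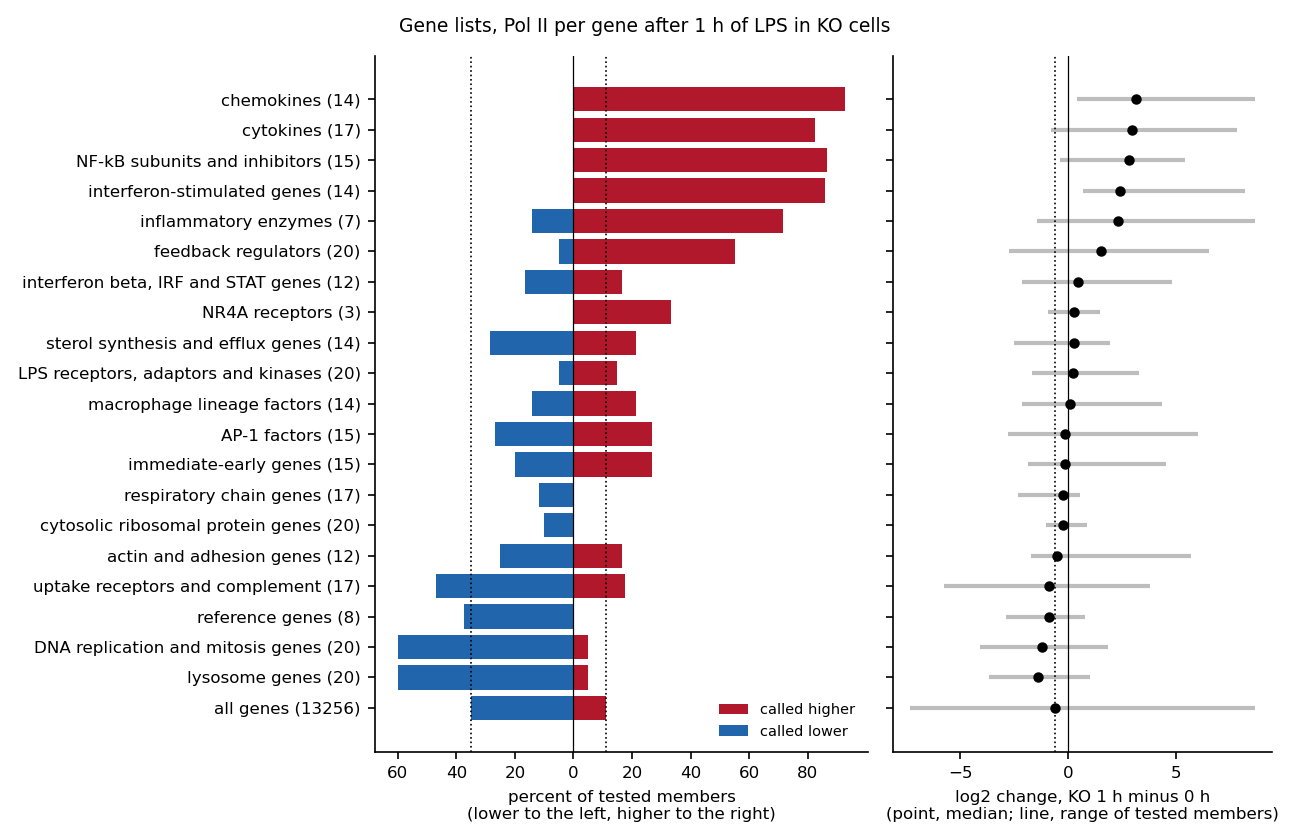
Share of tested members called lower (to the left) and higher (to the right) in each gene list, with the number tested in brackets, and beside it the median log2 change (point) with the range of members (line); the dotted line is the median of all genes, -0.62. NF-kB genes, cytokines, chemokines and interferon-stimulated genes lie at the higher end, with lysosome genes and DNA replication and mitosis genes at the lower end.

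The rises with the largest fitted change also held genes outside these lists. Tnfsf4, the ligand OX40L, was listed at 0 in all 3 untreated libraries and at 4048, 3652 and 3632 at 1 h. Slc7a2, an arginine transporter, was listed at 0 and then at 2645, 2490 and 2579, and Rbpjl, whose window overlaps another gene, at 0 and then at 1003, 1756 and 1204. Olr1, the receptor of oxidized lipoproteins, was at 0, 0 and 7.32 and then at 2513, 2159 and 2161. Sh3bgrl2 went from 29.0 ± 5.31 to 4249 ± 27.8 (6.78) and Ifih1, the RNA sensor MDA5, from 183 ± 28.5 to 18142 ± 990 (6.56). Sdc4, a heparan sulfate proteoglycan, had the largest gain per kb after Ltb, Tnf, Nfkbia and Lta, from 971, 982 and 1019 to 34843, 29692 and 31498 tags (5.00, SE 0.06), with all of its tags at 1 h in regions that reach another gene.

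At the other end, Zranb3, a DNA translocase that acts at replication forks, had the largest fitted fall, from 4645, 5420 and 4474 to 19.2, 18.2 and 24.3 (-7.31, SE 0.11). Fads3 and Treml1 went from 1504 ± 11.8 and 1485 ± 89.5 to 0 in each treated library. Rasgrp3, an activator of Ras, fell from 2027 ± 141 to 4.69 ± 4.10 (-7.16) and Slc40a1, the iron exporter ferroportin, from 1193 ± 19.4 to 7.17 ± 6.21 (-6.21). Pparg, a nuclear receptor of lipid metabolism, had 2707, 2621 and 2997 and then 48.1, 41.4 and 38.4 (-5.73). Its promoter window had a change of 0.05 and its body one of -6.78. Lyz1 fell by 6.34, with uncertain values, since its neighbour Lyz2 is a near-identical copy and its tags at 0 h came from regions that reach another gene. Lyz2, the lysozyme of macrophages, had the largest loss per kb among genes called, from 715 to 173 normalized tags, followed by Rgs2, from 794 to 284, and the urokinase gene Plau, from 641 to 214.

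Windows along the gene were compared for genes of at least 2 kb. In the promoter window, 500 bp to each side of the start, 457 of 10775 tested genes were higher and 1168 lower. In the body window 1528 of 12418 were higher and 4861 lower, and from 500 to 3000 bp past the gene end 828 of 9486 were higher and 3451 lower. The median changes were -0.23, -0.67 and -0.65. These counts are of windows of unequal size and were not tested against each other, and with a pseudocount of 1 the promoter window had 602 higher and 1910 lower. Of the genes called higher over the whole gene, 426 of 1226 with a tested promoter window (34.7%) were called higher there, 1410 of 1442 (97.8%) in the body and 662 of 1162 (57.0%) downstream. Of the genes called lower, 1043 of 3577 (29.2%) were called lower in the promoter window, 4173 of 4425 (94.3%) in the body and 2080 of 3086 (67.4%) downstream. The body makes up most of the value that the call used, so its share is fixed in part by the choice of genes. Because a stitched region has 1 density, a window inside it takes the density of its neighbours.

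Mean profiles along the gene were taken for the called genes. Longer regions at 1 h even out the profile of the higher genes (n = 1451) by construction, so its shape is not compared between times. Just before the start its mean stood at 28.9 ± 1.17 normalized tags per kb at 0 h and 73.2 ± 2.45 at 1 h (SD, n = 3 libraries). In the middle of the body it stood at 10.5 ± 0.257 and 65.1 ± 2.20. The medians over genes moved less just before the start, from 27.1 to 28.9 at 0 h to between 33.4 and 35.2 at 1 h. In the middle of the body they were 0 at 0 h and 17.6 to 18.1 at 1 h. The mean of the lower genes (n = 4528) went from 34.5 ± 1.37 to 17.9 ± 0.366 just before the start and from 15.6 ± 0.353 to 2.38 ± 0.113 in the middle of the body. Their medians were 27.9 to 30.3 at 0 h and 11.2 to 12.2 at 1 h just before the start, and 0 at both times in every library in the middle of the body. Among genes of at least 200 kb, the 115 called higher had 8.18 ± 0.293 in the first 10 kb at 0 h and 19.2 ± 0.285 at 1 h, and from 190 to 200 kb 2.96 ± 0.359 and 10.6 ± 0.0842. The 237 called lower had 7.00 ± 0.265 and 2.24 ± 0.0228 in the first 10 kb, and 2.66 ± 0.128 and 0.409 ± 0.0354 from 10 to 20 kb.

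The density at 1 h declined along the long gene Slco3a1, shown as an example in steps of 10 kb. It does not stand for the 115 long genes called higher, whose mean at 1 h was 10.6 from 190 to 200 kb. Slco3a1, which was chosen after its values were seen, is 279 kb long and had at most 0.606 normalized tags per kb in any of its first 20 steps at 0 h. At 1 h it had 29.8, 29.1, 27.2, 16.99, 15.5, 12.1, 6.82, 2.63, 0.737, 0.466 and 0.262 in its first 11 steps and 0 in the twelfth.

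**Figure D4:**
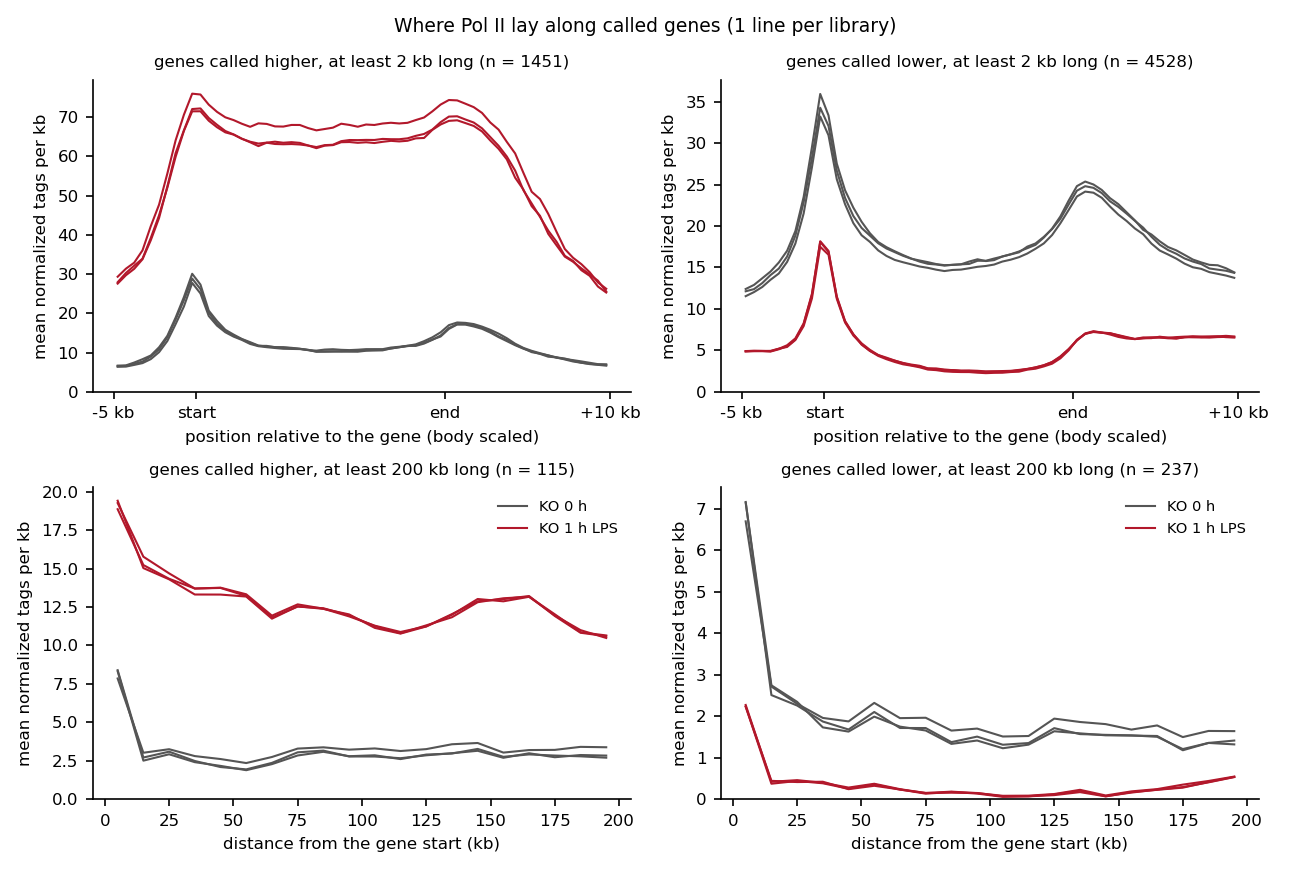
Mean Pol II in normalized tags per kb along genes called higher or lower, 1 line per KO library. Upper panels run from 5 kb before the start to 10 kb past the end with the gene body scaled (1451 higher and 4528 lower genes of at least 2 kb); lower panels give distance from the start in 10 kb steps (115 higher and 237 lower genes of at least 200 kb). The means of the higher genes lie above those at 0 h across the whole body, and those of the lower genes lie below.

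H3K27ac at gene starts, measured in other libraries of the same cells, was tested for 11998 genes, of which 662 were higher (5.52%) and 689 lower (5.74%) at 1 h. Among genes with higher Pol II, 422 of 1300 had higher H3K27ac (32.5%) and 7 lower, with a median log2 change of 0.73 against -0.06 over all genes. Among genes with lower Pol II, 24 of 3845 had higher and 502 lower H3K27ac (13.1%), with a median of -0.40. Earlier work on these data had found H3K27ac library KO replicate 1 at 1 h to stand apart from its group, which was not examined again here. Without that library the counts were 362 and 13 of 1283, and 48 and 432 of 3838. Ccl5, Cxcl10 and Ifnb1 had H3K27ac changes of 4.66, 4.39 and 4.18, and Lyz1 and Treml1 of -3.64 and -3.14. Sdc4 had 1.08, and Jdp2, in spite of its Pol II rise, 0.55, which was not called.

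Promoter letters were counted for the 10321 tested genes with a RefSeq promoter of 300 bases. NF-kB letters were present in 6.01% of the 1164 promoters of higher genes (70 genes, exact 95% binomial interval 4.72 to 7.54), in 2.60% of the 3572 of lower genes and in 3.16% of all. ISRE letters were present in 5.24%, 2.46% and 3.20%, TATAAA in 9.54%, 7.00% and 7.27%, and AP-1 letters in 5.33%, 3.56% and 3.58%. The cyclic AMP element TGACGTCA differed little, at 3.18%, 3.02% and 3.16%, and the CArG box was in 1.72%, 1.12% and 1.21%. Within the higher genes the shares of 3 of the 6 motifs went up in steps with the size of the rise. For log2 changes of 1 to 2, 2 to 4 and over 4 (659, 387 and 118 promoters), NF-kB letters were in 4.55%, 7.24% and 10.2%, TATAAA in 7.89%, 10.6% and 15.3% and ISRE letters in 3.79%, 5.68% and 11.9%. The other 3 did not go up in steps, with AP-1 letters in 4.86%, 4.13% and 11.9%, the cyclic AMP element in 2.88%, 4.65% and 0%, and the CArG box in 2.28%, 1.03% and 0.847%. The intervals of the bins overlap for NF-kB letters, at 3.09 to 6.44, 4.86 to 10.3 and 5.37 to 17.1. The intervals cover counting error only, and genes in a cluster are not independent.

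The comparison with WT cells asked where the 1 h response of KO cells differed. Across 13070 genes tested in both genotypes, which are not independent, the log2 changes correlated at r = 0.955. In WT 1365 of 13229 genes tested were called higher (10.3%) and 5733 lower (43.3%). Of the genes called higher in KO, 1214 (81.9%) were called higher in WT and 1 lower, and of those called lower, 4307 (92.5%) were called lower in WT and 2 higher. The interaction, the change in KO minus that in WT, was called for 569 of 13415 genes tested, 417 more positive (3.11%) and 152 more negative (1.13%) in KO. The median interaction was 0.17, and centring on the library median turned the counts to 191 and 258. These counts moved with the processing, to 1742 and 239 with input subtracted, to 97 and 60 with a pseudocount of 50 and to 210 and 135 without replicate 2. Without WT replicate 1 at 0 h, which had a lower share of tags in regions, the counts were 540 and 143. Most of the NF-kB, cytokine and chemokine genes had no called interaction, for example Nfkbia (-0.01), Tnf (-0.04) and Il1b (0.28).

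Interactions were called for a few inflammatory genes. Nos2 had 22.1, 28.5 and 32.0 tags in WT at 0 h and 548, 498 and 594 at 1 h, so that it rose by 3.90 in WT and by 1.52 in KO (interaction -2.38, SE 0.30, adjusted p 4.6e-05). Gbp5 and Gbp2 had larger log2 changes in KO (1.40 and 1.41), which were not called with a pseudocount of 50. Their levels at 0 h were lower in KO, with 11.7 ± 4.93 for Gbp5 against 57.4 ± 8.80 in WT (SD, n = 3), whereas at 1 h WT lay higher at 7443, 7352 and 7670. Cxcl10 (1.15) had 48.4, 51.2 and 55.9 in WT at 0 h and 1560, 2253 and 2395 at 1 h, so that its groups overlapped between genotypes at 1 h. Cxcl1 in WT was at 24.0, 6.67 and 18.4 before LPS and at 2792, 3037 and 3173 after it, and since KO is listed at 0 before LPS its interaction has no interpretable size. The calls of Cxcl10 (0.92) and Cxcl1 were lost on centring, with a pseudocount of 50 and without WT replicate 1 at 0 h. At these genes the more positive interaction went with lower values in KO at 0 h, and levels between genotypes were not tested. Cxcl9 was listed only in WT at 1 h (44.0, 70.9 and 56.7).

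Of the genes that fell, Irf8 fell more in KO, to 509 ± 24.6, than in WT, where it went from 2114, 2414 and 2349 to 1195, 1167 and 1282 (interaction -1.21, SE 0.09, adjusted p 1.3e-07). Mertk fell by 1.60 in KO and was not called in WT at -0.45 (interaction -1.15), and Fcgr1 fell by 3.73 and 2.64 (-1.09). Egr2 was at 814, 873 and 893 and then 988, 1095 and 999 in WT, and at 1243, 1251 and 1057 and then 643, 603 and 631 in KO (-1.16). Egr3 fell in both, to 14.8, 9.64 and 0 in WT and to 69.2, 113 and 71.8 in KO (2.07). With 1 WT library at 0, the size of the Egr3 interaction depends on the pseudocount. Nr4a1 was called lower in WT, from 189, 188 and 208 to 25.5, 23.0 and 30.4 (interaction 1.58), which leaves the WT libraries below the KO ones at 1 h. In the list of replication genes Mcm3, Mcm4, Mcm5 and Ccnb1 had positive interactions, from 1.10 to 1.99, and each had fewer tags in KO than the WT mean at 0 h. The calls of Mcm3 and Ccnb1 were lost on centring.

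**Figure D5:**
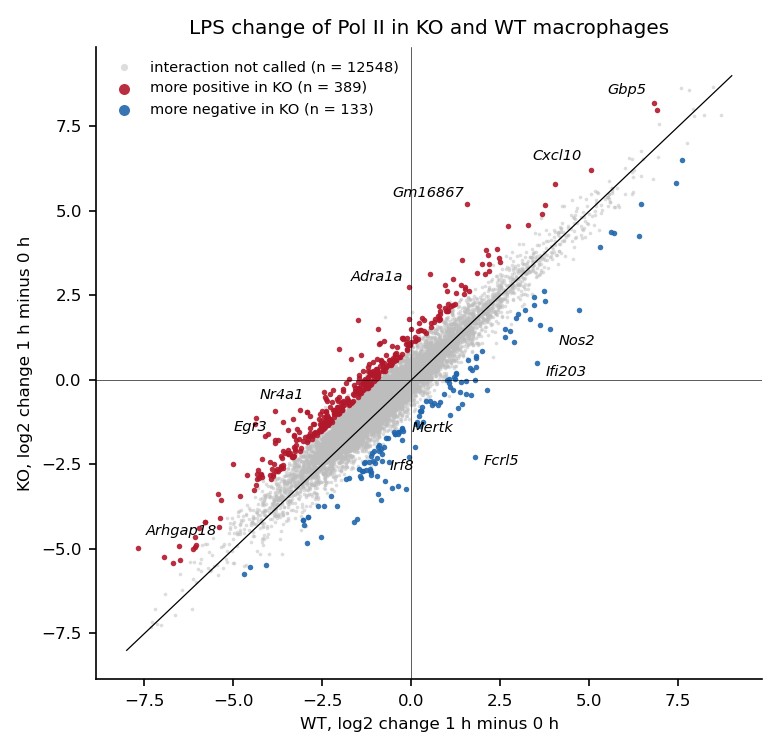
Log2 change of Pol II after 1 h of LPS in WT (horizontal axis) and KO (vertical axis) for 13070 genes tested in both; the diagonal marks equal changes and colours mark called interactions. Most genes lie along the diagonal, Nos2, Irf8 and Ifi203 below it and Gbp5 and Adra1a above it.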

How the data were processed

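ChIP-seq with an antibody against Pol II was done on KO and WT BMDMs, and the 6 KO libraries at 0 h and 1 h of LPS are the subject. Reads were trimmed with Skewer, aligned to mm10 with HISAT2 2.1.0 (per the submitters' processing notes), stripped of duplicates and searched with HOMER. The authors deposited, for each library, the regions found without an input control (window 500 bp, stitching distance 1000 bp, Poisson p 0.001), and the deposited signal is the normalized tag count, scaled to 10 M tags. The Pol II antibody carries 1 catalogue number in the labels and another in the methods.

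Values per gene used GENCODE vM21 (GRCm38, the same assembly as mm10). Of 21951 protein-coding genes, 54 with a duplicate symbol and 13 mitochondrial ones were left out. Genes above 0 in at least 2 libraries of a compared group were tested with limma 3.58.1 (R 4.3.3) on log2(normalized tags + 10), with 6 group means over 18 Pol II libraries, two-sided and with Benjamini-Hochberg adjustment over all genes tested. H3K27ac was summed over 2500 bp to each side of the start. As a check of the code, values of 12161 genes were simulated with independent noise around equal group means. Of 100 genes changed by 1.5 and 100 changed by 3 on the log2 scale, 95% and 99% were recovered, with 0 false calls. The simulation held no shift of scale, no search threshold and no shared regions, so it does not test how these affect the calls. The deposited values fall on steps smaller than 1 tag, regions that failed the search are not listed and gene values are shares of regions, so no count test was run.

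The members and gene lists were chosen with earlier results of these data known. Named genes are Nr4a1, members of the lists, the 15 largest rises and 15 largest falls in log2, the 10 largest gains and 10 largest losses per kb, and the 8 most positive and 8 most negative interactions, among called genes with no overlap between replicates for the rises, falls, gains and losses. Alternatives were other pseudocounts, filters, scalings, windows, input subtraction, a replicate block and leaving libraries out. Precision is limited by 3 libraries per group. A few genes are not reported here.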

Additional observations from a re-analysis of the deposited data

Results flagged for a closer look

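The change after 1 h of LPS differed between KO and WT, by the interaction term of the limma fit across all genes, for 36 of 360 named genes tested (10.0%), against 3.11% of all 13415 genes more positive and 1.13% more negative in KO. Of the 36, 16 were named for having the most positive or most negative called interactions, so the share does not describe the lists. Of the 345 genes not chosen by that rule alone 21 were called (6.09%). Interactions are log2 changes in KO minus those in WT, and levels are normalized tags. Where a group is listed at 0, the interaction is set by the pseudocount of 10 and gives no size: this holds for Gm16867, Arhgap18, C9, Eya1, Fcrl1, Ifi213, Cxcl9, Capn12, Ms4a1, Cxcl1 and Clec9a.

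Among the genes with the most positive interactions, Adra1a, an alpha-1 adrenergic receptor, had 140, 159 and 114 tags in KO at 0 h and 933, 1092 and 895 at 1 h. In WT its mean was 35.3 ± 6.30 at 0 h (SD, n = 3), and it had 57.2, 13.8 and 40.8 at 1 h (interaction 2.80). Gm16867 was at 0, 0 and 5.54 in KO and then at 441, 424 and 397, while WT had no region at 0 h and 18.8, 13.8 and 27.6 at 1 h (3.65). Arhgap18 fell in both genotypes and was listed at 0 in WT at 1 h, whereas KO had 40.4, 54.7 and 60.3 (2.72). C9 (3.29), Eya1 (3.24), Pde4d (3.11), Carmil1 (2.95) and Fcrl1 (2.91) complete the 8 most positive fitted values, an order set in part by the pseudocount.

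Among the most negative, Ifi203, an interferon-inducible gene, had 809, 974 and 1096 tags in KO and then 1372, 1334 and 1342, against 356, 396 and 388 and then 4688, 4291 and 4517 in WT (-3.03). Its relative Ifi213 was listed at 0 in KO at both times and reached 181, 173 and 144 in WT (-3.20). Igf2bp3 stood at 1536, 2732 and 3536 in KO at 0 h and at 257, 270 and 282 in WT, with 270 to 272 in KO and 188 to 213 in WT at 1 h (-2.75). Fcrl5 (-4.05), 1700001K19Rik (-3.06), Cxcl9 (-2.73), Capn12 (-2.71) and Ifitm6 (-2.66) complete the 8 most negative fitted values, whose order the pseudocount also sets in part.

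Of list members and other named genes, the interactions more positive in KO were those of Egr3 (2.07), Mcm4 (1.99), Nr4a1 (1.58), Gbp2 (1.41), Gbp5 (1.40), Ccnb1 (1.25), Mcm5 (1.24), Ms4a1 (1.20), Cxcl10 (1.15), Mcm3 (1.10), Cxcl1 (1.09), Mrc1 (1.09) and Clec9a (1.00). Those more negative in KO were Nos2 (-2.38), Fcgr2b (-1.31), Irf8 (-1.21), Egr2 (-1.16), Mertk (-1.15), Fcgr1 (-1.09) and Anxa9 (-1.03). Of the 36 calls, 16 kept their call under each alternative that tested them and 20 lost it under at least 1, 7 of them on centring and 12 with a pseudocount of 50. Some were not tested under the filter on values above 0 or with input subtracted.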

How the results depend on the processing

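Of 208 named calls, none changed direction under the other pseudocounts, filters and scalings or without single libraries where the gene was still tested, and 123 kept their call in each alternative that tested them (filters, input subtraction and the settings on windows and shared regions leave some out). Only the promoter window turned the sign, for Atf7 (0.25), Igf2bp3 (0.40), Klf4 (0.52), Ly96 (-0.17), Mcoln1 (0.27), Mertk (0.0497), Nr4a3 (-0.28), Polr2a (0.33), Pparg (0.0519) and Srebf2 (-0.11). Genes higher numbered 2395 centred on the library median, 485 in the promoter window and 900 among genes with at most 50% of their tags from regions that reach another gene. Genes lower numbered 2591 with a pseudocount of 50, 2507 centred, 2388 after quantile normalization, 1272 in the promoter window, 2503 among genes sharing no window and 2572 without genes of shared regions. The last 2 settings test fewer genes, and for the other settings the cause was not tested. The median change was -0.73 and -0.37 with pseudocounts of 1 and 50, -0.55 without a filter, -0.53 for genes above 0 in every library, -0.0491 centred, -0.0037 after quantile normalization, -0.68 with input subtracted, -0.23 in the promoter window, -0.57 for genes sharing no window, -0.65 without shared regions, and -0.61 to -0.65 when leaving out libraries.

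Interactions more positive in KO numbered 97 with a pseudocount of 50, 261 for genes above 0 in every library, 191 centred, 223 after quantile normalization and 1742 with input subtracted, and 210 without replicate 2 to 575 without replicate 1. Those more negative numbered 60 with a pseudocount of 50, 86 above 0 in every library, 258 centred and 239 with input subtracted. The median interaction was 0.10 with a pseudocount of 50, -0.0503 centred, 0.0094 after quantile normalization and 0.25 with input subtracted, and 0.10 without replicate 2 to 0.27 without replicate 1, with 0.24 without WT replicate 1 at 0 h. Promoter windows lower numbered 1910 with a pseudocount of 1, and body windows 2408 higher and 3011 lower after centring. List members called higher numbered 95 as reported and 58 without shared regions, and those lower 58, 28 in the promoter window and 36 without shared regions. NF-kB letters were in 4.69% of higher genes centred, 4.61% after quantile normalization and 8.17% in the promoter window, where TATAAA was in 15.8%, ISRE in 9.26% and AP-1 letters in 6.81%.

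Same-numbered replicates did not deviate together (r = 0.008, -0.004 and -0.036), so no sign of pairing was seen. These values cannot show whether same-numbered libraries came from the same mouse or culture. A replicate block gave 1482 higher and 4659 lower, 409 and 145 interactions, and 659 and 683 for H3K27ac. Settings for regions shared between genes, the H3K27ac library left out and single WT libraries were chosen after seeing the data.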
